A study of Mus musculus with 54 samples.

Results

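Early day (ZT2) was compared with late day (ZT10) in the mouse suprachiasmatic nucleus (SCN), the hypothalamic nucleus that times daily rhythms, 8 hr apart and both in the light. The comparison takes 6 of the 18 replicates of the series, 3 at each timepoint, or 18 of its 54 lane samples. It was described across the 18941 genes, of 30031 in the count table, that had at least 1 read in more than 6 of the 18 replicates. All samples came from male C3H/HeH mice aged 10-12 weeks, kept under a 12:12 light/dark cycle, group housed at first and then singly for 7 days before the brains were taken. ZT counts hours from lights on. One replicate was the laser-captured SCN of 5 mice, pooled, its RNA amplified with the SMARTer protocol and sequenced on 3 lanes that the deposited table combines, so the spread between replicates is that between pools and not between single mice. All 6 pools were wild-type and untreated, and the time of day was what the labels of these groups differed in.

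The SCN clock is a feedback loop in which the activators CLOCK and ARNTL (BMAL1) switch on the Per and Cry genes, whose proteins return to repress them. ROR and REV-ERB nuclear receptors, D-box factors such as DBP and TEF, and the DEC proteins BHLHE40 and BHLHE41 form side loops. SCN neurons are GABAergic and signal through neuropeptides such as vasopressin, VIP and GRP, and light reaches them through glutamate from the retina, with calcium, cAMP and immediate early genes in its path. Electrical firing of the nucleus is high by day and low by night.

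Between 17740695 and 25527093 reads were counted on genes in the 3 ZT2 libraries and between 21148267 and 24025794 in the 3 ZT10 libraries. Levels are given as CPM, the share of a library’s reads that fell on a gene, scaled with TMM factors that make libraries comparable. Markers of the SCN were present in each of the 6 libraries, with 1087 to 2880 CPM of *Vip*, 37.3 to 208 CPM of *Six6* and 99.2 to 263 CPM of *Six3*. Markers of neighbouring hypothalamic neurons were low, with summed levels of 18.5 to 28.2 CPM at ZT2 and 21.7 to 36.6 CPM at ZT10, and *Oxt* between 0.113 and 2.52 CPM. Across genes, which are not independent replicates, libraries of one timepoint correlated with a Pearson r of 0.931 to 0.958 (ZT2) and 0.927 to 0.947 (ZT10), and libraries of different timepoints with 0.820 to 0.875. Replicates differed by more than sampling noise, with a chi-square per gene of 28.7 to 87.3 within a timepoint. Mitochondrial genes took 3.18 to 4.51% of the reads at ZT2 and 6.57 to 8.16% at ZT10, and histone genes 0.00248 to 0.00360% against 0.0279 to 0.0337%. The paper reports a principal component plot in which libraries separated by timepoint and by sequencing batch, and holds batch effects to be minimal. No label assigned a library to a sequencing batch, so time of day and a batch that followed the timepoints cannot be told apart. The part of these library differences in the results was not tested.

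A large share of the transcriptome differed between early and late day. With edgeR's quasi-likelihood test on all 18 replicates and a Benjamini–Hochberg q under 0.05, 5486 genes differed (29.0% of those tested), of which 3018 were higher at ZT10 (15.9%) and 2468 lower (13%). At least 2-fold differences were found for 2419 of the former (12.8% of those tested) and 1730 of the latter (9.13%), and 7347 genes (38.8%) had an unadjusted p under 0.05. The libraries of the timepoints did not overlap for 8916 genes (47.1%), 4667 higher (24.6%) and 4249 lower (22.4%) at ZT10. The median log2 difference over all tested genes, ZT10 minus ZT2, was -0.001. All log2 differences below have this direction. Counts of list members called or without overlap below stand against the shares of all tested genes given here.

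Among the clock repressors, *Per1*, *Per2* and *Cry1* rose from early to late day, and *Per3*, *Cry2* and *Ciart* did not pass the test. *Per2*, whose protein is the main rhythmic partner of the cryptochromes, had 24.4, 25.8 and 29.0 CPM in the ZT2 libraries and 96.7, 105 and 116 CPM at ZT10. Its lowest ZT10 library thus lay far above its highest ZT2 library, a log2 difference of 2.01 (SE 0.29, q = 4.72e-05). *Per1*, the period gene that light induces most acutely, had 10.5, 18.5 and 19.1 CPM at ZT2 and 33.5, 31.6 and 44.6 CPM at ZT10 (log2 1.19, SE 0.29, q = 0.00426), again without overlap, but its difference was 0.17 (q = 0.736) in a fit with offsets for the GC content and exon length of each gene. *Cry1*, which encodes the late and strong repressor of the loop, had 31.7, 32.1 and 18.7 CPM at ZT2 and 63.3, 54.4 and 52.4 CPM at ZT10 (log2 1.04, SE 0.26, q = 0.00467).

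*Per3* had 19.9, 22.9 and 42.7 CPM at ZT2 against 55.5, 38.4 and 67.9 CPM at ZT10 (log2 0.92, SE 0.36, q = 0.0673). Its ranges overlapped through ZT2 replicate C, without which q was 0.0276, and q was also under the threshold without ZT6 replicate A (0.0352), ZT6 replicate C (0.0419) or ZT18 replicate C (0.0465), and with the offsets (0.0196). *Cry2* had 38.6, 50.7 and 58.6 CPM at ZT2 and 56.1, 36 and 65.9 CPM at ZT10, with no separation (log2 0.10, q = 0.856). The 6 repressors had a median log2 difference of 0.98, with 3 called higher and 0 lower.

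Of the 4 activators, 2 were called lower and 0 higher, but with the GC and length offsets 0 were lower and 1, *Arntl*, was higher. *Clock* had 78.0, 96.8 and 46.4 CPM at ZT2 and 39.0, 32.0 and 48.2 CPM at ZT10 (log2 -0.89, SE 0.25, q = 0.0107). One ZT10 library exceeded the lowest ZT2 library, and the call was lost without ZT2 replicate B (q = 0.0807), without ZT10 replicate B (q = 0.0588) and with the GC and length offsets (q = 0.247). *Arntl2*, a paralogue of *Arntl*, fell by a log2 of 2.11 at levels of 7.18 CPM and less (q = 0.0296), and lost its call without ZT2 replicate A (q = 0.0848), ZT10 replicate B (q = 0.0794) or ZT10 replicate C (q = 0.102) and with the offsets (q = 0.0656). *Arntl*, which encodes the partner of CLOCK, stood at 31.3, 29.0 and 19.2 CPM against 42.0, 31.8 and 38.9 CPM (log2 0.50, SE 0.26, q = 0.161, and 0.95 with q = 0.008 with the offsets), and *Npas2* at 4.18 to 4.52 CPM against 2.13 to 6.09 CPM.

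The nuclear receptors of the side loop moved in opposite directions. *Rorb*, a ROR receptor strongly expressed in the SCN, had 1033, 1317 and 1006 CPM at ZT2 and 295, 184 and 293 CPM at ZT10, with the groups far apart (log2 -2.12, SE 0.23, q = 2.45e-06). *Rora*, its paralogue and an activator of *Arntl*, had 237, 342 and 246 CPM at ZT2 and 547, 536 and 522 CPM at ZT10 (log2 0.96, SE 0.18, q = 0.000576). Neither call was lost when any 1 of the 18 libraries was omitted, nor with the offsets. The REV-ERB genes, which encode repressors of *Arntl*, did not pass the test over all libraries. *Nr1d1* had 64.4, 315 and 699 CPM at ZT2 and 118, 106 and 101 CPM at ZT10, so that its ZT2 libraries lay on both sides of the ZT10 libraries (log2 -1.73, SE 0.70, q = 0.0749). Without ZT2 replicate A it passed (q = 0.0156), as it did without ZT22 replicate B (q = 0.0365), with the 6 libraries alone (q = 0.0445) and with the offsets (log2 -2.38, q = 0.00877). *Nr1d1* overlaps *Thra* in the annotation. *Nr1d2* had 98.8 to 120 CPM at ZT2 and 71.3 to 83.0 CPM at ZT10 (log2 -0.47, q = 0.288).

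*Bhlhe40*, the DEC1 repressor that binds E-boxes and also responds to light, fell from 129, 151 and 120 CPM to 41.2, 33.6 and 31.4 CPM (log2 -1.91, SE 0.26, q = 2.47e-05). *Bhlhe41* (DEC2) had 403, 416 and 353 CPM at ZT2 and 211, 150 and 369 CPM at ZT10 (log2 -0.68, SE 0.27, q = 0.0696). ZT10 replicate C was level with the ZT2 libraries, and without it *Bhlhe41* passed the test (log2 -1.11, q = 0.00382), as it did without ZT18 replicate C (q = 0.0446). Of the D-box activators, *Tef* fell from 252, 241 and 230 CPM to 144, 149 and 164 CPM (log2 -0.66, SE 0.14, q = 0.00161), *Hlf* rose by a log2 of 0.41 (q = 0.0376), and *Dbp* had 51.2 to 70.8 CPM at ZT2 and 48.1 to 60.8 CPM at ZT10 (log2 -0.18, q = 0.634). The *Hlf* call was lost without ZT2 replicate A (q = 0.106), ZT2 replicate B (q = 0.0656), ZT2 replicate C (q = 0.102), ZT10 replicate A (q = 0.131) or ZT10 replicate C (q = 0.0909). With the offsets *Dbp* was lower at ZT10 (log2 -1.94, q = 3.23e-05), although it overlaps *Sphk2*. Of the 9 genes for kinases and ubiquitin ligases that set the turnover of PER and CRY, 0 were called by edgeR in either direction, with libraries not overlapping for 2 in each direction, near the 24.6% higher and 22.4% lower of all tested genes. The offsets gave 2 higher and 0 lower of these 9.

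Neuropeptide genes held some of the largest rises. *Avp*, which encodes vasopressin, the peptide of the SCN shell, had 8.09, 13.9 and 14.2 CPM at ZT2 and 276, 278 and 410 CPM at ZT10, a 26.6-fold difference (log2 4.73, SE 0.35, q = 2.43e-08). Its 577 exonic bases on chromosome 2 of GRCm38, from 130580620 to 130582554, have a GC content of 65.7%, and the offsets lowered its log2 difference to 2.25 (q = 3e-06). *Grp*, which encodes gastrin-releasing peptide of the SCN core, had 40.5, 46.0 and 33.9 CPM at ZT2 and 294, 350 and 239 CPM at ZT10 (log2 2.87, SE 0.29, q = 9.28e-07), and 2.12 with the offsets. In both genes the lowest ZT10 library was many times the highest ZT2 library. *Vgf*, a precursor of several secreted peptides, rose from 24.5, 44.9 and 27.1 CPM to 172, 148 and 143 CPM (log2 2.26, SE 0.26, q = 4.74e-06), but with a GC content of 64.1% its difference was 0.17 (q = 0.701) with the offsets. *Scg2*, the secretogranin of dense-core vesicles, went the other way, from 7429, 10139 and 6226 CPM to 4318, 5014 and 3286 CPM (log2 -0.92, SE 0.19, q = 0.0014).

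*Vip*, the peptide that couples SCN core neurons, had 2148, 2184 and 1087 CPM at ZT2 and 2693, 2880 and 2283 CPM at ZT10 (log2 0.54, SE 0.25, q = 0.117), and q = 0.0242 with the offsets. *Prok2*, an output peptide of the nucleus, had 77.1, 168 and 139 CPM at ZT2 and 79.3, 75.9 and 87.1 CPM at ZT10 (log2 -0.66, q = 0.294), with the lowest ZT2 library among those of ZT10. Of the 18 peptide genes tested, 6 were called higher (*Avp*, *Grp*, *Vgf*, *Cck*, *Cartpt* and *Nmu*) and 1 lower, with a median log2 difference of 0.91. *Cck*, *Cartpt*, *Nmu* and *Vgf* lost their calls with the offsets, which left 3 higher and 1 lower with *Vip*, and a median of 0.30 above that of all genes. Without 1 library *Cck* lost its call through ZT10 replicate C (q = 0.0731), *Cartpt* through ZT2 replicate A (0.0903), ZT2 replicate B (0.0973) or ZT10 replicate C (0.0789), and *Nmu* in 13 of the 18 cases (q over all libraries = 0.0497).

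Of 19 receptors for these peptides and for SCN inputs, 6 were called lower late in the day and 0 higher, and 13 did not pass the test. The median log2 difference was -1.03. The libraries did not overlap for 9 lower and 2 higher, against 22.4% and 24.6% of all tested genes. With the offsets 4 were called lower and 0 higher. *Cnr1*, the CB1 cannabinoid receptor, had 175, 111 and 90.6 CPM at ZT2 and 24.8, 25.4 and 32.7 CPM at ZT10 (log2 -2.18, SE 0.31, q = 3.6e-05). *Npy2r*, a receptor for neuropeptide Y, had 6.45, 7.79 and 11.2 CPM at ZT2 and 0.146, 0.0868 and 0.944 CPM at ZT10 (log2 -4.42, SE 0.89, q = 0.000971). The groups were apart for both receptors. *Adcyap1r1*, the PAC1 receptor for the PACAP that retinal terminals release with glutamate, fell from 179, 279 and 253 CPM to 88.1, 99.0 and 117 CPM (log2 -1.23, SE 0.21, q = 0.000234). *Prokr2*, the receptor of prokineticin 2, fell from 328, 421 and 267 CPM to 169, 140 and 153 CPM (log2 -1.14, SE 0.19, q = 0.000219). These 4 calls held in all 18 fits without 1 library and with the offsets. *Vipr2*, the VPAC2 receptor through which VIP acts in the SCN, had 237, 262 and 346 CPM at ZT2 and 190, 173 and 184 CPM at ZT10 (log2 -0.63, SE 0.20, q = 0.028), a call lost without ZT2 replicate C (q = 0.0875), without ZT10 replicate A (0.0563), B (0.0884) or C (0.0673), with the offsets (q = 0.182) and on the reads recovered from the normalized table (q = 0.0599). *Htr5a*, a serotonin receptor, was the other member called lower (q = 0.0248), and lost its call without ZT2 replicate B (q = 0.114), ZT10 replicate A (q = 0.0573) or ZT10 replicate C (q = 0.104) and with the offsets (q = 0.0588).

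**Figure D1:**
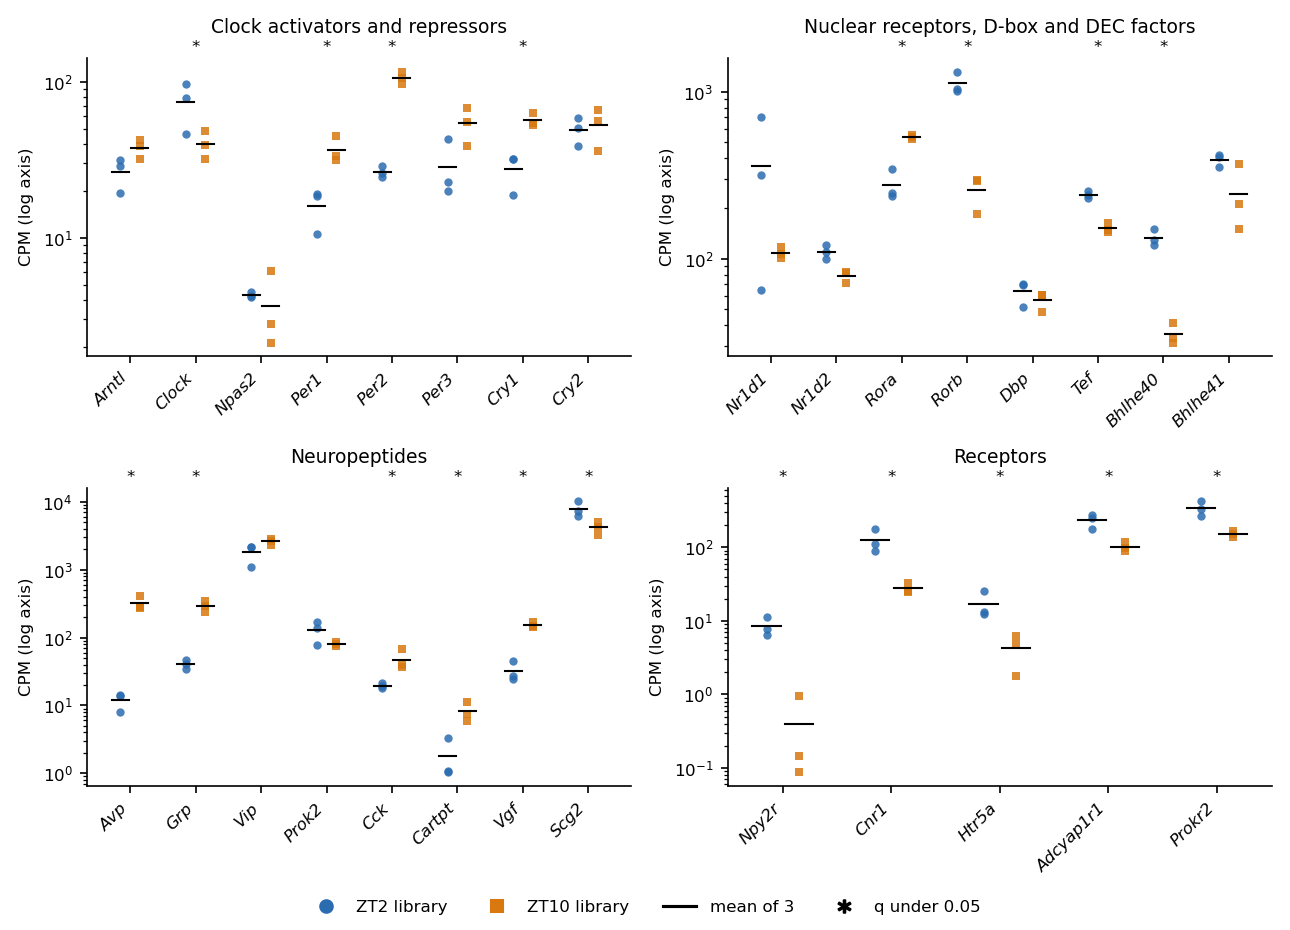
CPM on a log axis of clock genes, neuropeptides and receptors in each of the 3 ZT2 libraries (blue circles) and the 3 ZT10 libraries (orange squares), with the mean of each group as a black line and a star over genes with q under 0.05. *Per2*, *Avp* and *Grp* lie higher at ZT10 and *Rorb*, *Bhlhe40* and the receptors lower without overlap, while *Nr1d1* has ZT2 libraries on both sides of ZT10.

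Immediate early genes, which neuronal activity and light switch on within minutes, did not move as a block. *Fos* had 9.27, 23.8 and 42.2 CPM at ZT2 and 26.8, 41.7 and 27.8 CPM at ZT10 (log2 0.36, SE 0.49, q = 0.645), and *Egr1* 42.3, 45.4 and 24.5 CPM against 14.3, 18.2 and 31.3 CPM (log2 -0.81, SE 0.35, q = 0.0894). The libraries of both genes overlapped between timepoints, and *Egr1* passed the test without ZT2 replicate C (q = 0.0356) or ZT10 replicate C (q = 0.0256), and with the offsets (log2 -1.62, q = 0.00766). Of 20 factors, 5 were called higher (*Jun*, *Junb*, *Jund*, *Ier2* and *Npas4*) and 1 lower. *Fosl2*, a partner of the JUN proteins, fell from 56, 88.7 and 66.1 CPM to 9.61, 6.21 and 9.91 CPM (log2 -3.03, SE 0.32, q = 1.3e-06). *Junb*, itself a JUN protein, had under 1 CPM in each ZT2 library and 7.81, 5.38 and 9.11 CPM at ZT10 (log2 3.90, SE 0.58, q = 5.45e-05). The offsets lowered its log2 difference to 2.01 (q = 0.00931). *Jund* rose from 10.6, 11.3 and 10.7 CPM to 42.9, 49.3 and 46.7 CPM (log2 2.09, SE 0.20, q = 4.46e-07), but its exons have a GC content of 67.1% and the offsets turned the difference to -0.55 (q = 0.0572). *Npas4*, an activity-dependent factor, had 1 read over the ZT2 libraries together and 13, 41 and 13 reads at ZT10. *Ier2* was called at q = 0.013 and lost its call without ZT2 replicate C (q = 0.0515) and with the offsets (log2 2.82, q = 0.0862).

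Effectors of activity gave the highest rise of this group. *Gadd45g*, a growth-arrest gene induced by stress and activity, had 1.98, 3.57 and 3.28 CPM at ZT2 and 302, 390 and 266 CPM at ZT10, a 108-fold difference (log2 6.75, SE 0.43, q = 3.6e-09), and 5.25 with the offsets. It lies on chromosome 13 of GRCm38 from 51846678 to 51848468. Its relative *Gadd45b* had 0.0565, 0.215 and 0.771 CPM at ZT2 and 6.11, 9.85 and 9.16 CPM at ZT10 (log2 4.52, SE 0.82, q = 0.000398). *Rasd1* (Dexras1), a small GTPase that modulates the response of the clock to light, had 13.8, 40.1 and 115 CPM at ZT2 and 489, 522 and 366 CPM at ZT10 (log2 3.03, SE 0.66, q = 0.00184). Its ZT2 libraries were spread widely, yet all lay under the ZT10 libraries. *Btg2*, an antiproliferative early gene, fell from 72.2, 97.1 and 81.2 CPM to 34.7, 29.3 and 30.8 CPM (log2 -1.40, SE 0.24, q = 0.000245). Of the 18 effectors, 6 were called higher (those 3 with *Vgf*, *Ppp1r15a* and *Arc*) and 2 lower (*Btg2* and *Homer1*). *Ppp1r15a* lost its call without ZT2 replicate A (q = 0.0502), *Arc* without ZT2 replicate A (0.147) or B (0.0919) or ZT10 replicate A (0.0606) or C (0.198), and *Homer1* without ZT2 replicate A (0.115) or B (0.0708) or ZT10 replicate A (0.0857) or B (0.131). *Arc* and *Homer1* also lost their calls with the offsets (log2 0.35, q = 0.685, and log2 -0.49, q = 0.184), and *Homer1* on the recovered reads (q = 0.0587). With the offsets 4 effectors were higher and 2 lower.

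Promoter windows are shown for genes of these groups, since E-boxes (CACGTG, bound by CLOCK and ARNTL) and cAMP response elements (CRE, TGACGTCA, bound by CREB) are the elements through which the clock and light reach such genes. A window holds 250 bases before and 50 after a RefSeq transcription start on GRCm38.p6, was searched on both strands, and is printed 5′ to 3′ in the direction of the gene with the match in capitals. The first 4 are the windows with a match of the 4 called genes with the smallest q, and the last 2 those of called clock repressors, a choice made after the values were seen.
Gadd45g, chr13:51846425-51846724, plus strand: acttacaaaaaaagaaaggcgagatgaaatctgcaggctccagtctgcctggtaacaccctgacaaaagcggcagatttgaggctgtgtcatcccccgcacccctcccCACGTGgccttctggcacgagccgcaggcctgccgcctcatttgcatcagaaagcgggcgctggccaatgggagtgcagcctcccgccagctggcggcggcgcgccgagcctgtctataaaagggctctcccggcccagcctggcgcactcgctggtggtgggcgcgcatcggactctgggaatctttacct
Avp, chr2:130582539-130582838, minus strand: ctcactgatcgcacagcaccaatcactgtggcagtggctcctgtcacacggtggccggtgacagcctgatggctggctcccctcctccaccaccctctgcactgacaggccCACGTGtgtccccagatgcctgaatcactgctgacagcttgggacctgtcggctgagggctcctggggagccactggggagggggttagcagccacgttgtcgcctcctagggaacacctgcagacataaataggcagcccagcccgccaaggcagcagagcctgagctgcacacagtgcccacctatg
Cnr1, chr4:33924394-33924693, plus strand: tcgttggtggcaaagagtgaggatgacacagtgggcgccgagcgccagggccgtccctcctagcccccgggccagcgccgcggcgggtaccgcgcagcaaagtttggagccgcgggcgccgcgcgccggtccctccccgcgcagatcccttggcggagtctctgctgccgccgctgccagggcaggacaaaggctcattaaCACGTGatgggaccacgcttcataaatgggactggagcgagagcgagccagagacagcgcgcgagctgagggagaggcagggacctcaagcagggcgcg
Btg2, chr1:134079106-134079405, minus strand: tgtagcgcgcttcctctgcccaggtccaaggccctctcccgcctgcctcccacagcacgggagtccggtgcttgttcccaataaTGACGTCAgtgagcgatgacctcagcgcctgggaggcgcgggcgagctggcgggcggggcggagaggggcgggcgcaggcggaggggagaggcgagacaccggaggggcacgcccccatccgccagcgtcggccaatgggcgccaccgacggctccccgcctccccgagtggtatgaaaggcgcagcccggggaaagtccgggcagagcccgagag
Per1, chr11:69098699-69098998, plus strand: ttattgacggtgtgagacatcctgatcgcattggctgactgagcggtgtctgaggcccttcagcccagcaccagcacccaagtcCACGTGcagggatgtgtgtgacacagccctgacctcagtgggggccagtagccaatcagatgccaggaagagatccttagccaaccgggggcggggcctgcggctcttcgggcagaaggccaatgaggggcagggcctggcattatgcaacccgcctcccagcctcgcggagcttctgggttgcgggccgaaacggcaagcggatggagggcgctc
Cry1, chr10:85185005-85185304, minus strand: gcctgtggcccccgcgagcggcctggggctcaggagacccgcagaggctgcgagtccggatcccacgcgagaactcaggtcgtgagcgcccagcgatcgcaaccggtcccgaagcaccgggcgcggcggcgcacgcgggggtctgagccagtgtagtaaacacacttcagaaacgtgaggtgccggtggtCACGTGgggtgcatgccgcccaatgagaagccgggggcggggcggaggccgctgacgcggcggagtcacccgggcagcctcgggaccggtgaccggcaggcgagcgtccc

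The matches started 142 bases before the start of *Gadd45g*, 139 before that of *Avp*, 49 before that of *Cnr1*, 166 before those of *Btg2* (a CRE) and *Per1*, and 60 before that of *Cry1*. Genes that rose (*Gadd45g*, *Avp*, *Per1*, *Cry1*) and one that fell (*Cnr1*) thus had an E-box in the window. *Cnr1* and *Per1* have other annotated starts whose windows are not shown. The E-box was in 7.15% of all 32851 windows, in 10.5% of the 2661 windows of protein-coding genes called higher at ZT10, in 9.37% of the 2550 windows of those called lower and in 8.84% of the 9797 windows of those tested and not called. For the CRE the shares were 1.79, 3.76, 3.06 and 2.40%. The D-box (TTATGTAA), the site of DBP and TEF, was in 0.938% of all windows, in 0.676% of those higher, 0.471% of those lower and 0.684% of those not called. A match is a stretch of letters and not a shown site of binding.

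Of 10 transcription factors that mark SCN neurons, 5 rose and 1 fell, and the offsets gave 4 higher and 1 lower. *Six6*, a homeobox factor required for the SCN to form, had 37.3, 59.7 and 42.2 CPM at ZT2 and 191, 208 and 147 CPM at ZT10 (log2 1.97, SE 0.23, q = 5.38e-06), and its relative *Six3* 130, 138 and 99.2 CPM against 261, 252 and 263 CPM (log2 1.08, SE 0.18, q = 0.000228). *Dlx1*, *Dlx2* and *Zic1* were also called higher and *Rorb* lower, but *Dlx1* lost its call without ZT10 replicate C (q = 0.072), *Dlx2* without ZT2 replicate A (q = 0.0557) and with the offsets (q = 0.345), and *Zic1* without ZT2 replicate C (q = 0.123). In bulk samples such as these, fewer cells of a type and less RNA per cell cannot be told apart.

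Signalling genes downstream of light and peptides were lower at ZT10 more often than higher. Of 40 genes of cAMP and calcium signalling, 16 were called lower and 3 higher (*Camk2b*, *Adcy3* and *Crtc1*), with a median log2 difference of -0.77. *Itpr1*, the IP3 receptor that releases calcium from the endoplasmic reticulum, fell from 151, 111 and 146 CPM to 49.9, 23.9 and 40.9 CPM (log2 -1.83, SE 0.26, q = 3.6e-05). *Crtc1*, the CREB coactivator that light brings into the nucleus, rose from 2.43, 5.12 and 9.06 CPM to 61.6, 44.5 and 77.2 CPM (log2 3.45, SE 0.37, q = 1.75e-06), with no overlap. With the offsets 8 genes of this list were called lower and 3 higher.

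Glutamate receptors followed, with 8 of 22 called lower and 3 higher (*Grin1*, *Grin2c* and *Grik5*), against 13% and 15.9% of all tested genes. Their median was -0.84. The NMDA receptor subunits split. *Grin2b*, a glutamate-binding subunit, had 311, 418 and 391 CPM at ZT2 and 86.2, 49.7 and 72.6 CPM at ZT10 (log2 -2.43, SE 0.30, q = 8.9e-06), while *Grin1*, the subunit that every NMDA receptor needs, had 5.54, 8.69 and 9.98 CPM against 41.8, 46.9 and 71.2 CPM (log2 2.72, SE 0.26, q = 5.72e-07). The AMPA receptor subunit *Gria2* fell from 897, 830 and 605 CPM to 324, 275 and 268 CPM (log2 -1.43, SE 0.20, q = 3.03e-05). All 3 calls held with the offsets, at -1.78, 2.01 and -0.97. *Grik5* lost its call with the offsets (q = 0.852) and without ZT2 replicate A (0.0861), ZT2 replicate B (0.0758) or ZT10 replicate C (0.0708). With the offsets 5 of the list were lower and 1 higher.

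Of 24 genes of GABA signalling, 10 were called lower and 5 higher (*Gad2*, *Slc32a1*, *Gabbr1*, *Slc12a5* and *Gabrb1*), against 13% and 15.9% of all tested genes. *Abat*, which breaks down GABA, fell from 744, 1550 and 1405 CPM to 428, 366 and 359 CPM (log2 -1.68, SE 0.25, q = 7.02e-05). *Gabrb1*, a GABA-A receptor subunit, rose from 26.7, 31.9 and 21.4 CPM to 108, 71.2 and 84.9 CPM (log2 1.72, SE 0.23, q = 1.65e-05). With the offsets 5 were lower and 4 higher, and *Slc12a5* lost its call (q = 0.233). *Gabrb1* overlaps *Gabra4*, which was called lower.

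Of 34 potassium channel genes, 8 were called lower and 6 higher, and of 26 genes for calcium, sodium and pacemaker channels 11 were lower and 6 higher, against 13% lower and 15.9% higher of all tested genes. With the offsets the counts were 8 and 6 for potassium channels and 5 and 3 for the others. *Kcnj10*, the Kir4.1 channel of glia, fell from 422, 342 and 339 CPM to 136, 137 and 171 CPM (log2 -1.31, SE 0.18, q = 2.77e-05). *Cacna1g*, a T-type calcium channel that opens near rest, rose from 11.7, 13.7 and 16.5 CPM to 43.7, 43.7 and 62.6 CPM (log2 1.84, SE 0.25, q = 2.75e-05), and *Kcnh2*, an ERG channel, from 0.339, 1.33 and 2.58 CPM to 9.17, 16.1 and 17.9 CPM (log2 3.32, SE 0.71, q = 0.00162). *Scn3a*, a sodium channel, had 158, 197 and 125 CPM at ZT2 and 72.8, 65.1 and 71.7 CPM at ZT10 (log2 -1.20, SE 0.21, q = 0.000293). *Cacnb3*, a calcium channel beta subunit with a GC content of 61.3%, was called higher at a log2 of 1.35 (q = 0.000135), and the offsets turned it to -0.25 (q = 0.394).

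Of 16 RGS genes, which switch off G-protein signals, 5 were higher (*Rgs3*, *Rgs10*, *Rgs12*, *Rgs19* and *Rgs20*) and 4 lower (*Rgs4*, *Rgs5*, *Rgs8* and *Rgs16*). *Rgs20* rose from 15.2, 17.8 and 13.8 CPM to 41.3, 52.6 and 33.6 CPM (log2 1.45, SE 0.30, q = 0.00138), and *Rgs8* fell from 38.4, 40.8 and 33.7 CPM to 8.10, 14.7 and 10.7 CPM (log2 -1.75, SE 0.32, q = 0.000364). The offsets gave 7 higher and 4 lower of these 16. Of 32 genes of vesicle release, 8 were lower and 5 higher (*Syn1*, *Syp*, *Syngr3*, *Rab3a* and *Syt5*), the latter near the 15.9% of all tested genes. For vesicle release the offsets gave 10 lower and 4 higher. *Nsf*, the ATPase that takes SNARE complexes apart, fell from 1265, 1456 and 1117 CPM to 351, 292 and 334 CPM (log2 -1.98, SE 0.23, q = 3.8e-06), whereas *Syt5*, a synaptotagmin, rose from 10.2, 14.6 and 12.9 CPM to 409, 384 and 293 CPM (log2 4.85, SE 0.31, q = 3.95e-09).

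Genes for the ribosome and the respiratory chain were called higher late in the day more often than lower. Of 77 genes for cytosolic ribosomal proteins, 41 were called higher and 2 lower (*Rpl4* and *Rpl15*), against 15.9% and 13% of all tested genes, with a median log2 difference of 0.56 and a summed level of 23098 to 26827 CPM at ZT2 and 33527 to 37905 CPM at ZT10. *Rpl13*, of the large subunit, had 14.9, 13.6 and 10.1 CPM at ZT2 and 619, 529 and 565 CPM at ZT10 (log2 5.48, SE 0.27, q = 1.54e-10). *Rpl4* fell from 1520, 1353 and 1327 CPM to 856, 1006 and 865 CPM (log2 -0.62, SE 0.13, q = 0.0016), and *Rpl15* lost its call without ZT2 replicate A (q = 0.115) or B (0.0999) or ZT10 replicate A (0.0825) or C (0.0932), with the offsets (0.0588) and on the recovered reads (0.291). Ribosomal protein genes have many processed copies in the genome, and reads shared with them make single values uncertain. With the offsets 20 were higher and 6 lower.

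Of 74 genes for the mitochondrial ribosome, 35 were higher and 3 lower, with a median of 0.59, and the counts with the offsets were 35 and 8. *Mrpl54* rose from 10.2, 7.66 and 7.59 CPM to 152, 177 and 142 CPM (log2 4.21, SE 0.18, q = 2.56e-11). Of 79 nuclear genes of the respiratory chain, 43 were higher and 6 lower, with a median of 0.55, and 27 and 15 with the offsets. *Cox6a1*, a subunit of cytochrome c oxidase, had 37.0, 35.9 and 40.5 CPM at ZT2 and 1195, 1428 and 1119 CPM at ZT10 (log2 5.04, SE 0.22, q = 4e-11), while *Sdha*, the flavoprotein of complex II, fell from 1352, 1498 and 1281 CPM to 417, 378 and 325 CPM (log2 -1.88, SE 0.18, q = 6.78e-07). The libraries of these 3 genes did not overlap between timepoints. The offsets lowered the log2 difference of *Mrpl54* to 2.57 and that of *Cox6a1* to 3.01. The list of respiratory chain genes coded in mitochondria held 8, not all genes of that genome, and 2 were called higher (*mt-Nd3* and *mt-Nd6*). Their summed level overlapped between timepoints, with 13443 to 17592 CPM at ZT2 and 13851 to 21674 CPM at ZT10 for the 8. *mt-Nd3* had 41.6, 29.0 and 17.3 CPM at ZT2 and 104, 75.6 and 146 CPM at ZT10 (log2 1.89, SE 0.38, q = 0.000881). *mt-Nd6* lost its call without ZT2 replicate B (q = 0.0708) or C (0.135) or ZT10 replicate C (0.1) and with the offsets (q = 0.106), which left 1 of the 8 called.

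Splicing factors and hnRNPs were higher for 27 of 63 genes and lower for 10 (median 0.50), among them *Snrpf*, a core snRNP protein, which rose from 1.92, 2.67 and 2.04 CPM to 54.6, 69.3 and 55.1 CPM (log2 4.75, SE 0.24, q = 2.07e-10), and *Prpf8*, the central protein of the spliceosome, which fell from 270, 342 and 220 CPM to 105, 91.5 and 96.0 CPM (log2 -1.51, SE 0.19, q = 1.03e-05). Translation factors divided into 18 higher and 14 lower of 64, with *Eif1* at 133, 106 and 112 CPM against 1262, 1463 and 1170 CPM (log2 3.48) and *Eif4g2* at 1432, 1484 and 1389 CPM against 454, 403 and 466 CPM (log2 -1.70). Proteasome subunits divided into 11 higher and 6 lower of 37, against 15.9% and 13% of all tested genes. The offsets gave 9 higher and 8 lower for the proteasome. They gave 29 and 8 for splicing factors and hnRNPs, and 18 and 14 for translation factors. Histone genes of the replication-dependent kind, whose mRNA mostly has no poly(A) tail, were called higher in 14 of 31 and lower in 0, with a median of 4.05. The offsets left 10 higher and 0 lower. Their summed level at ZT10 was 269 to 343 CPM, to which *Hist1h2bc* gave a mean of 131 CPM. The 1156 exonic bases of that gene lie between 23684199 and 23692908 on chromosome 13, and the form of its transcript was not tested. *Hist1h2bc*, an H2B gene, had 2.54, 3.01 and 2.66 CPM at ZT2 and 123, 154 and 114 CPM at ZT10 (log2 5.57, SE 0.33, q = 1.27e-09).

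Glycolysis moved the other way. Of its 17 enzymes 10 were lower and 2 higher (*Hk1* and *Pgam1*), with a median of -0.73, and with the offsets 12 and 2. *Hk1* lost its call without ZT2 replicate A (q = 0.113) or B (0.108) or ZT10 replicate A (0.0607) or C (0.0594). *Pfkp*, a phosphofructokinase that catalyses the committed step, fell from 391, 459 and 305 CPM to 101, 73.3 and 82.4 CPM (log2 -2.17, SE 0.26, q = 4.97e-06), its isozyme *Pfkm* from 468, 557 and 539 CPM to 202, 212 and 179 CPM (log2 -1.40, SE 0.17, q = 7.54e-06), and *Pkm*, pyruvate kinase, from 2792, 3900 and 3136 CPM to 1098, 1094 and 835 CPM (log2 -1.70, SE 0.24, q = 3.6e-05). No ZT10 library reached a ZT2 library for any of these enzymes. Of 22 genes of cholesterol synthesis, 8 were lower and 5 higher (*Sqle*, *Mvd*, *Mvk*, *Tm7sf2* and the regulator *Srebf2*). *Mvk* lost its call without ZT2 replicate A (q = 0.0855) or B (0.0682) or ZT10 replicate A (0.055) and with the offsets (0.0697), and *Tm7sf2* on the recovered reads (log2 0.67, q = 0.0725). *Hmgcs1*, the enzyme before HMG-CoA reductase, fell from 497, 523 and 357 CPM to 214, 147 and 163 CPM (log2 -1.39, SE 0.18, q = 1.5e-05).

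Of 24 chaperone and cold-inducible genes, 5 were higher (*Cirbp*, *Dnajb1*, *Hsf1*, *Hspe1* and *Hspa1a*) and 1 lower, against 15.9% and 13% of all tested genes. *Hspa1a* lost its call without any 1 of the ZT2 replicates (q = 0.0918, 0.0818 and 0.123) or ZT10 replicates B (0.0805) or C (0.0753) and with the offsets (q = 0.254). With the offsets 9 of the list were higher and 3 lower. *Cirbp*, an RNA-binding protein that rises as body temperature falls, had 202, 261 and 295 CPM at ZT2 and 666, 892 and 506 CPM at ZT10 (log2 1.45, SE 0.25, q = 0.000251). *Hsf1*, the heat shock transcription factor, rose from 13.2, 10.5 and 11.8 CPM to 32.8, 36.6 and 35.4 CPM (log2 1.56, SE 0.29, q = 0.00042), and *Hsp90ab1*, a constitutive chaperone, fell from 4203, 5198 and 3732 CPM to 2028, 2231 and 1250 CPM (log2 -1.25, SE 0.28, q = 0.00228). Of 17 genes of the glucocorticoid response, 4 were higher (*Nfkbia*, *Ddit4*, *Mt1* and *Mt2*) and 0 lower, against the same shares of all tested genes. *Nfkbia*, the inhibitor of NF-kappa-B, rose from 4.47, 6.37 and 5.59 CPM to 68.8, 70.2 and 53.3 CPM (log2 3.55, SE 0.42, q = 4.97e-06). *Mt1* lost its call without ZT2 replicate A (q = 0.0573) or C (0.0604) or ZT10 replicate B (0.0574) and with the offsets (log2 0.23, q = 0.345), and the offsets turned *Mt2*, a metallothionein like *Mt1*, from a log2 difference of 1.03 to -0.11.

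Markers of astrocytes were lower at ZT10. Of 12 astrocyte markers 7 were lower and 0 higher, with a median of -1.14 and a summed level of 9301 to 11810 CPM at ZT2 and 4382 to 4737 CPM at ZT10. *Slc1a3*, the glutamate transporter GLAST, fell from 2427, 2288 and 1842 CPM to 768, 685 and 761 CPM (log2 -1.57, SE 0.17, q = 1.53e-06) and *Gja1*, connexin 43, from 983, 891 and 754 CPM to 382, 274 and 442 CPM (log2 -1.26, SE 0.18, q = 3.91e-05). With the offsets 8 astrocyte markers were lower. Of 13 oligodendrocyte markers 5 were lower, with *Pdgfra*, the growth factor receptor of oligodendrocyte precursors, at 82.1, 70.7 and 60.9 CPM against 20.7, 15.1 and 15.1 CPM (log2 -2.07, SE 0.28, q = 2.31e-05), and *Olig1* was higher, a call lost with the offsets (q = 0.122). Of 10 microglial markers 2 were lower and 3 higher. *Cx3cr1*, the fractalkine receptor, fell from 67.4, 55.8 and 43.0 CPM to 8.15, 11.9 and 14.7 CPM (log2 -2.26, SE 0.31, q = 2.85e-05), whereas the complement genes *C1qa* and *C1qc* rose, *C1qc* from 4.69, 3.53 and 3.04 CPM to 24.9, 30.5 and 21.1 CPM (log2 2.77, SE 0.43, q = 9.18e-05). Of 11 vascular markers 4 were lower (*Tek*, *Pecam1*, *Rgs5* and *Pdgfrb*) and 2 higher (*Flt1* and *Cldn5*). *Flt1* lost its call without ZT2 replicate C (q = 0.0564) and *Cldn5* with the offsets (q = 0.064). Apart from the astrocyte markers, these lists had calls in both directions. The part of cell composition in them and in the neuronal lists described above was not tested.

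Ependymal and tanycyte markers were called higher for 2 and lower for 2 of 10, markers of neighbouring hypothalamic neurons higher for 2 of 10 (*Oxt* and *Pomc*, each at 13.5 CPM or less), markers of telencephalic excitatory neurons higher for *Cck* and lower for *Camk2a* of 10, and blood markers lower for *Alas2* of 4. *Oxt* and *Pomc* lost their calls with the offsets (q = 0.257 and 0.32) and *Oxt* also without any 1 of the ZT2 replicates (0.0925, 0.0594 and 0.095) or ZT10 replicates A (0.061) or C (0.0551), *Alas2* without ZT2 replicate A (0.0622), and *Camk2a* in 11 of the 18 fits that omitted 1 library and with the offsets (0.0786). Among the telencephalic markers the summed level was 337 to 487 CPM at ZT2 and 212 to 408 CPM at ZT10. Of 5 abundant long noncoding RNAs *Gas5* was called higher (log2 0.53, q = 0.0325), and it lost its call with DESeq2's size factors (q = 0.0795), upper-quartile scaling (q = 0.0948) or without ZT2 replicate B (0.118) or C (0.17) or ZT10 replicate A (0.0628), B (0.0652) or C (0.0864).

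**Figure D2:**
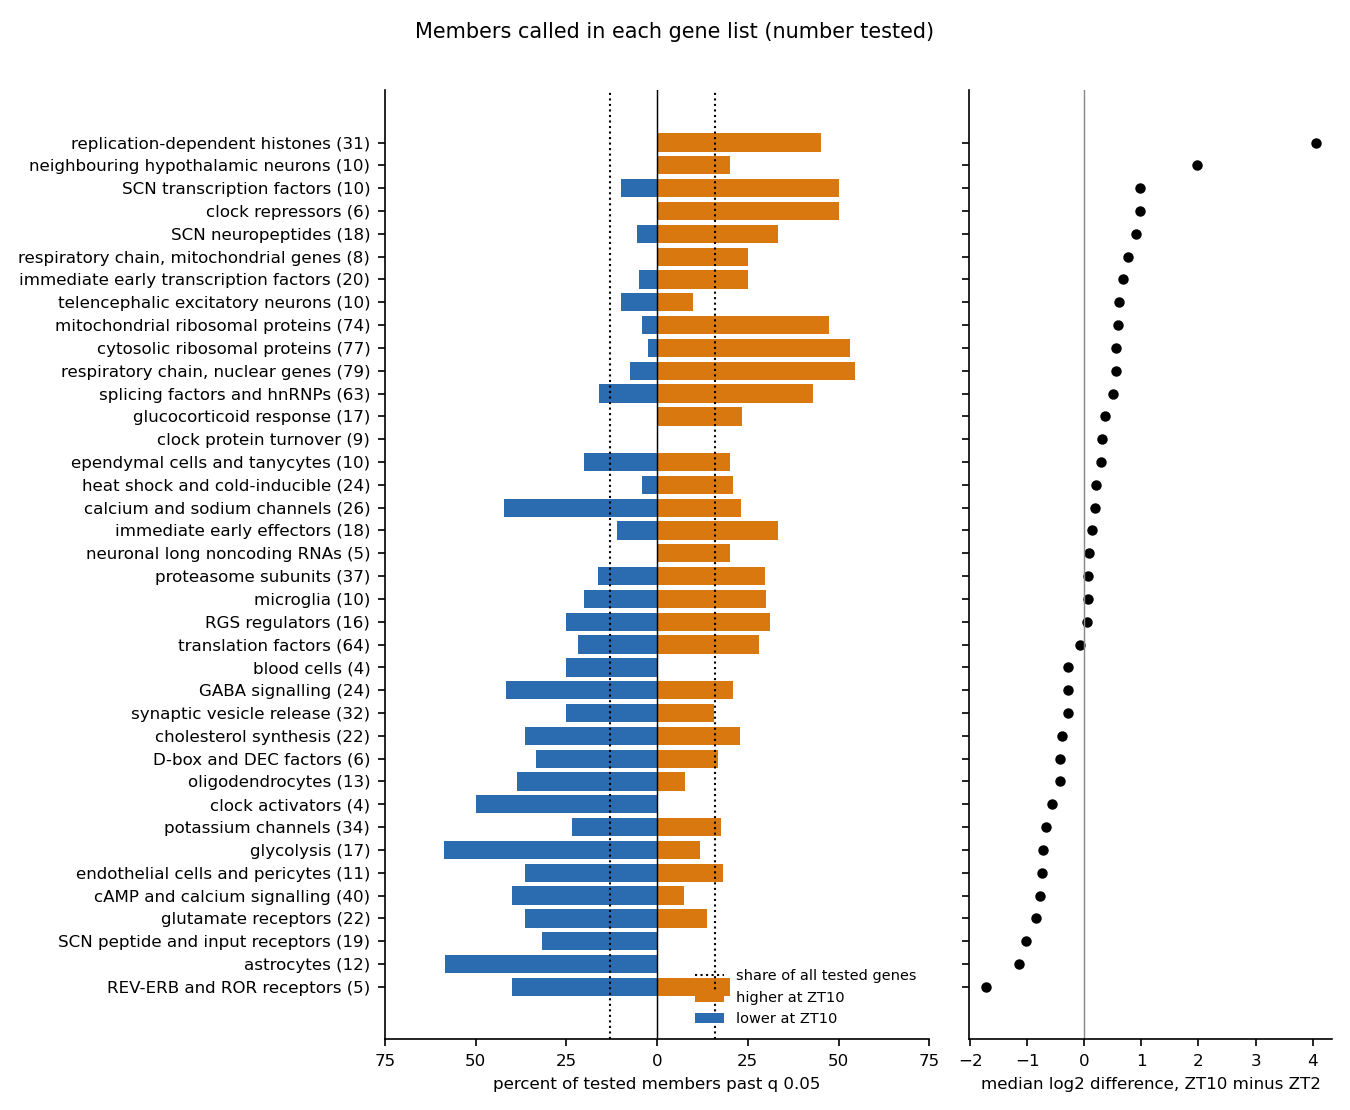
Left, percent of the tested members of each of 38 gene lists called higher (orange) or lower (blue) at ZT10 at q under 0.05, with the number tested in parentheses and dotted lines at the shares of all tested genes (15.9% higher, 13% lower). Right, median log2 difference of the list, from -1.73 for the REV-ERB and ROR receptors to 4.05 for histones.

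The extremes lay beyond these lists. Besides *Gadd45g*, the largest rises among protein-coding genes of at least 10 CPM were those of *Gm5617*, *Rex1bd*, *C1qtnf4*, *Hist3h2ba* and *Thop1*. *C1qtnf4*, which encodes a secreted C1q/TNF-related protein, had 0.339, 0.387 and 0.385 CPM at ZT2 and 41.9, 40.8 and 49.6 CPM at ZT10 (log2 6.87, SE 0.33, q = 1.46e-10), and *Rex1bd* 0.283, 0.947 and 2.85 CPM against 190, 223 and 173 CPM (log2 7.10, SE 0.77, q = 2.07e-06). The offsets lowered the log2 difference of *C1qtnf4*, whose GC content is 70.7%, to 3.72 (q = 4.57e-08). They lowered that of *Gm5617* from 7.83 to 6.13 and that of *Hist3h2ba* from 6.23 to 4.95. *Thop1*, a peptidase that cleaves neuropeptides, rose from 0.509, 0.258 and 0.154 CPM to 28.1, 17.5 and 17.8 CPM (log2 6.15, SE 0.57, q = 3.58e-07). *Pramef8*, *Gstp1*, *Pdpn* and *Myadm* were among the largest falls. *Pramef8*, of a large family of near-identical genes, had 1020, 1362 and 1315 reads at ZT2 and 0 reads in each ZT10 library, which is at least 1210-fold lower with a floor of 3 counts over the ZT10 libraries together. *Pdpn*, podoplanin, fell from 40.8, 34.3 and 31.5 CPM to 0.0485, 0.0434 and 0.0472 CPM (log2 -9.44, SE 0.56, q = 1.36e-09). Each of the genes given here was called in all 18 fits that omitted 1 library. Calls in the 6 fits that omitted a ZT2 or ZT10 library, and no overlap, were conditions of their choice.

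Some of the falls were neighbours in the genome. Runs of at least 4 consecutive tested genes with a log2 difference past 3 in one direction were found at 4 places of GRCm38. On chromosome 19, from 4035407 to 4175479, 10 such genes together had between 12318 and 20561 reads per ZT2 library and between 48 and 58 reads per ZT10 library, and 9 of the 10 were called. They include *Gstp1*, glutathione S-transferase pi, with 540, 631 and 450 CPM at ZT2 and 0.437, 0.347 and 0.236 CPM at ZT10 (log2 -10.62, SE 0.28, q = 4.07e-14). *Gstp1* has a close copy next to it, *Gstp2*. The same 10 genes had 40 to 59 reads per library at ZT6 and 22993 to 25195 at ZT22.

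On chromosome 7, from 3109020 to 3435667, 6 such genes fell from between 1360 and 4378 reads per ZT2 library to between 6 and 15 per ZT10 library. They include *Myadm* and genes for gamma subunits of calcium channels and AMPA receptors. ZT6 libraries had 3 to 32 reads and ZT22 libraries 4107 to 5213. In the other direction, 4 genes on chromosome 10 from 81486249 to 81524225 rose (18 to 126 reads at ZT2, 677 to 843 at ZT10, 2 called), and 4 histone genes on chromosome 13 from 23531050 to 23571220 (0 to 7 reads at ZT2, 171 to 303 at ZT10, 3 called).

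**Figure D3:**
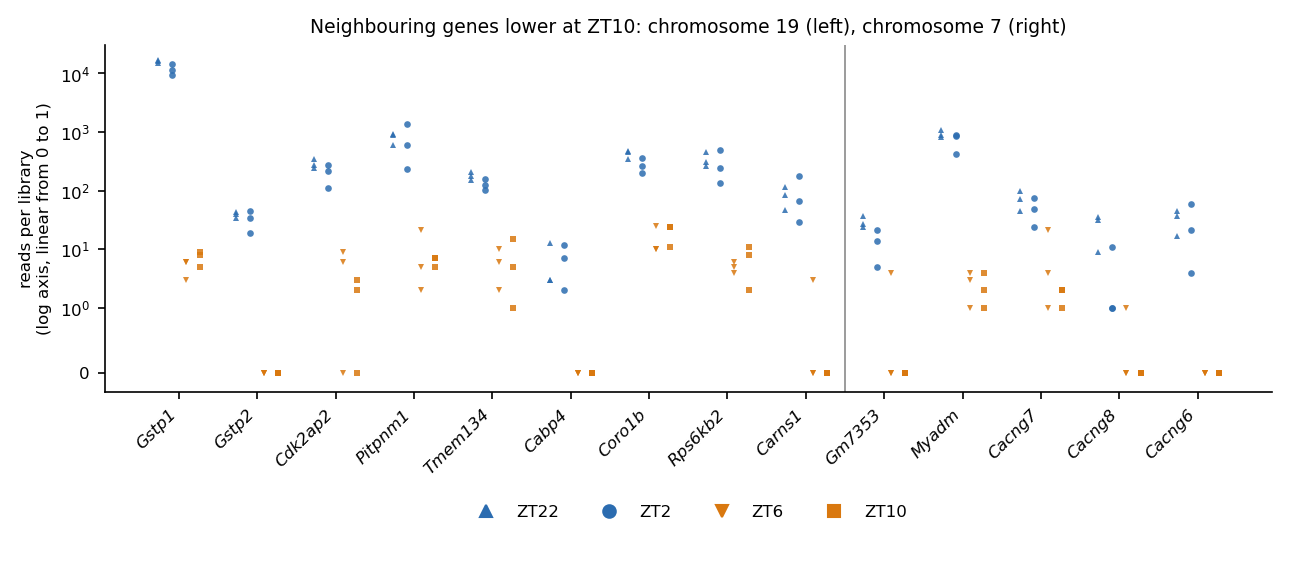
Reads per library on a log axis (linear from 0 to 1) of 9 of the 10 neighbouring genes lower at ZT10 on chromosome 19 (left of the line) and 5 of the 6 on chromosome 7 (right), in genome order, with 3 libraries each of ZT22 and ZT2 (blue) and ZT6 and ZT10 (orange). *Gstp1* and *Myadm* lie far higher at ZT22 and ZT2 than at ZT6 and ZT10.

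The neighbouring timepoints placed most differences in the same way. Of 4133 protein-coding genes that were called, did not overlap and had at least 10 CPM (2089 higher, 2044 lower), 3825 (92.5%) had their ZT6 mean on the ZT10 side and their ZT22 mean on the ZT2 side of the midpoint between ZT2 and ZT10 on the log scale. By these means the genes thus grouped ZT22 with ZT2 and ZT6 with ZT10. No test was made against ZT6 or ZT22, and the side of a mean near the midpoint is uncertain. The deposited tables divide the same way: 93.0 to 94.2% of genes had identical reads in the count table and the normalized table at ZT22 and ZT2, and 8.72 to 12.1% at ZT6 and ZT10, so this difference between the tables moves with the pattern, and its part in it was not tested. For 196 (4.74%) ZT6 was on the ZT2 side, and for 140 (3.39%) ZT22 was on the ZT10 side, with 28 in both groups. *Avp* had 5.37 ± 3.02 CPM (SD, n = 3) at ZT22, 12.1 ± 3.45 at ZT2, 454 ± 24.0 at ZT6 and 322 ± 76.8 at ZT10, as the first kind. *Fosl2* ran from 24.0 ± 7.06 CPM at ZT22 to 70.3 ± 16.7 at ZT2, 34.2 ± 9.01 at ZT6 and 8.58 ± 2.06 at ZT10, so that ZT2 stood above both neighbours. *Rasd1*, in both exceptional groups, had 201 ± 202 CPM at ZT22, 56.1 ± 52.2 at ZT2, 122 ± 20.0 at ZT6 and 459 ± 82.3 at ZT10. *Nrgn*, neurogranin, had 47.5 ± 21.1 CPM at ZT6 against 25.9 ± 15.4 at ZT2 and 116 ± 64.8 at ZT10, and lost its call with the offsets (q = 0.177). *Abca1*, the cholesterol exporter, had 33.1 ± 7.88 CPM at ZT22 against 58.5 ± 5.93 at ZT2 and 18.9 ± 0.967 at ZT10.

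**Figure D4:**
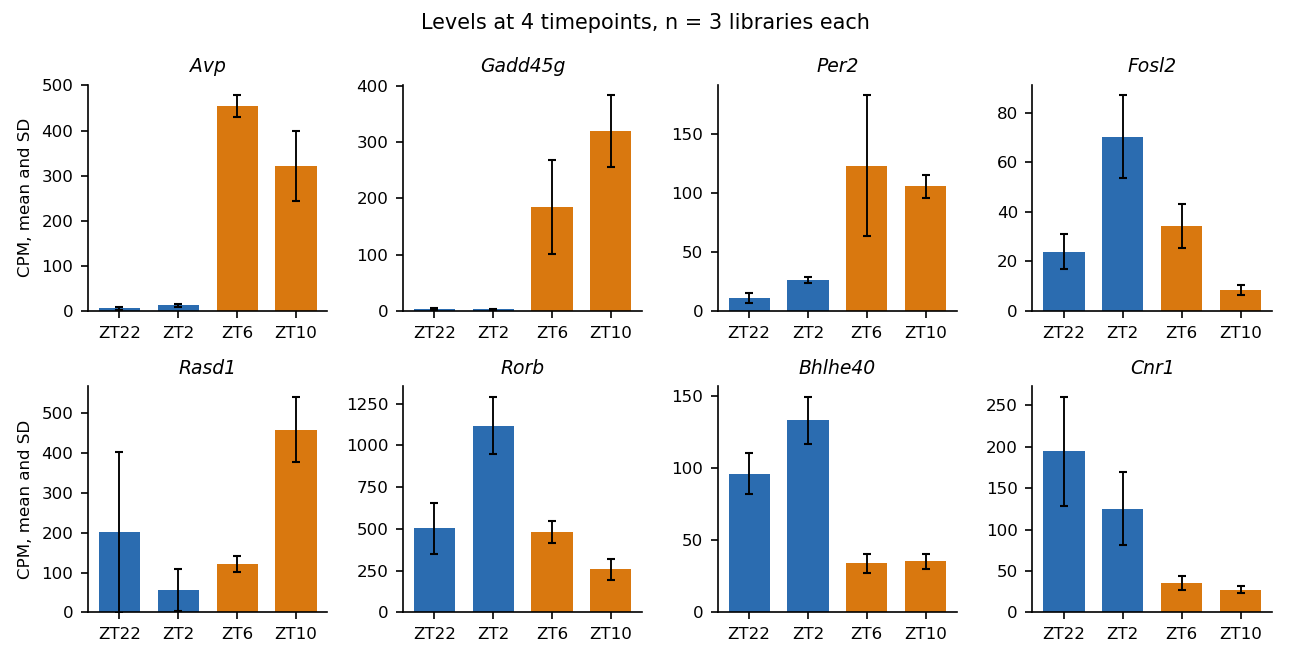
Mean CPM with SD (n = 3 libraries, bars cropped at 0) at ZT22, ZT2, ZT6 and ZT10 of 8 genes, with ZT22 and ZT2 in blue and ZT6 and ZT10 in orange. *Avp*, *Gadd45g* and *Per2* step up and *Bhlhe40* and *Cnr1* step down between ZT2 and ZT6, while *Fosl2* and *Rorb* are highest at ZT2 and *Rasd1* is highest at ZT10.

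GC content and length moved with the difference. Of 5 equal groups of genes by GC content, the highest (55.3 to 76.3%) had a median log2 difference of 0.942, with 33.5% called higher and 2.91% lower, and the lowest one of -0.292, with 9.48% higher and 17% lower. The highest GC group deviated in the ZT2 libraries by -0.839, -0.542 and -0.351 from each gene's mean over the 18 libraries and in the ZT10 libraries by 0.355, 0.372 and 0.325 (medians on the log2 scale). The ZT22 libraries deviated by -0.290 to -0.444 and the ZT6 libraries by -0.076 to 0.307. At ZT14 the deviations were 0.478 to 0.535, above those of ZT10, and at ZT18 they were 0.429, 0.348 and -0.047. By exon length, the median difference went from 0.519 in the shortest of 5 groups to -0.396 in the longest, where 24.4% were called lower. With per-gene offsets for both, these medians lay between -0.191 and -0.019, and 4783 genes were called (2434 higher), of which 3732 were among the 5486 and in the same direction (68% of the former list and 78% of the latter), while 39 were called in opposite directions. Whether the gradient is technical or biological was not tested.

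**Figure D5:**
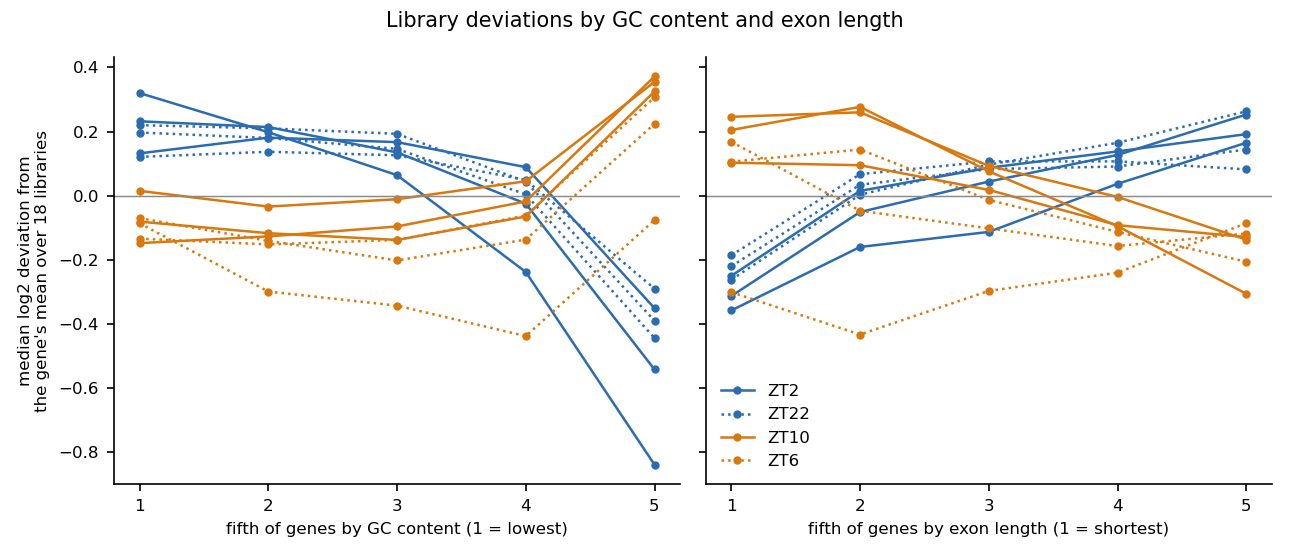
Median log2 deviation from each gene's mean over the 18 libraries, by 5 equal groups of tested genes in GC content (left) and exon length (right), for each library of ZT2 and ZT22 (blue, solid and dotted) and ZT10 and ZT6 (orange, solid and dotted). In the highest GC group the ZT2 libraries lie between -0.839 and -0.351 and the ZT10 libraries between 0.325 and 0.372.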

How the data were processed

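RNA-seq of laser-captured SCN was analysed for ZT2 and ZT10, 3 pools of 5 mice each. Per the labels the authors aligned reads with GSNAP to mm10 (GRCm38) and counted them per gene with HTSeq 0.5.4p1. The authors deposited raw read counts of 30031 genes, lanes combined, and a second table of 31077 genes with normalized signal, counts divided by a size factor per column. All values of that table (100% per column, within 0.02 of a whole multiple of 1 step) gave whole reads. Identical reads in both tables were found for 92.7 to 94.2% of shared genes with a read at ZT2, ZT14, ZT18 and ZT22, and for 8.72 to 12.1% at ZT6 and ZT10, with recovered over counted reads at -0.131 to -0.111 at the median (log2) in these last. The count table was used throughout, and each deposited column belongs to a named replicate.

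edgeR 4.0.16 in R 4.3.3 (TMM, quasi-likelihood F-test, 1 mean per timepoint, all 18 replicates) tested ZT10 minus ZT2 for the 18941 genes, adjusted by Benjamini–Hochberg, calling q under 0.05. It was tested on simulated data with known changes. Alternatives were DESeq2 1.42.0, 2 other scalings, 2 filters, the 6 libraries alone, the replicate letter as a block, recovered reads, offsets for GC content and exon length (loess per library, GENCODE M21, 98.8% of tested genes), and each of the 18 libraries left out, with the offsets and the block together added after the data were seen. SE, q and log2 differences come from this fit, and SDs cover pools. Symbols and positions come from GENCODE M21 (97.4% of identifiers).

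The comparison, the 38 gene lists and the naming rule were chosen with earlier results of these data known. The rule took clock genes, up to 5 called members a direction of the peptide, receptor and immediate early lists, up to 2 of each other list, the 6 highest and 6 lowest differences, and genes of the runs and of the 4-timepoint classes. The highest and lowest differences were taken among called protein-coding genes of at least 10 CPM without overlap. These genes also had to be called in each fit that omitted a ZT2 or ZT10 library. *Arc*, *Dlx1*, *Dlx2*, *Hsf1*, *Hspa1a*, *Hspe1*, *Mt1*, *Mt2*, *Mvk*, *Nmu*, *Pkm*, *Tek*, *Vipr2* and *Zic1*, and other list members given without a value, were named after their values were seen. GC content is that of the longest transcript and exon length that of all exons merged. Counting by strand is not given in the sources used here, so values of overlapping genes may share reads. Promoter sequences are from RefSeq. Some genes that the rule or a list holds are not reported here.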

Additional observations from a re-analysis of the deposited data

Results flagged for a closer look

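The normalized table holds genes that are not in the count table and so enter no comparison above. On the reads recovered from it, 2171 of these genes were tested and 517 (23.8%) differed between ZT10 and ZT2, with 221 higher and 296 lower at ZT10, and 806 had an unadjusted p under 0.05. Among them *Ndufb2*, a subunit of complex I, had 473, 609 and 839 recovered reads at ZT2 and 8819, 11369 and 10180 at ZT10. *Cox14* and *Coa6*, which encode assembly factors of cytochrome c oxidase, had 489 to 1066 reads against 5400 to 6530 and 33 to 69 reads against 989 to 1348. In the other direction, *Gm3788*, a processed pseudogene, had 1223, 1533 and 1628 recovered reads at ZT2 and 7, 8 and 11 at ZT10. The protein-coding gene *Rad9a* had 664, 1035 and 1369 against 5, 2 and 3. These genes were noted because they are signal outside the count table, and they were not followed further.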

How the results depend on the processing

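The count of differing genes lay between 4334 and 6398 under all alternatives, that of genes higher at ZT10 between 2349 and 3347, and that of genes lower between 1867 and 3097, each within 1.5 times the 5486, 3018 and 2468 given above. Leaving out 1 library gave 4334 (without ZT2 replicate B) to 6203 (without ZT18 replicate C) genes, with 2408 to 3347 higher and 1867 to 2856 lower. DESeq2 gave 6398, the recovered reads 6162 (4628 shared in direction with the 5486, 57 opposite) and the offsets 4783. The replicate block gave 5278 genes (2884 higher), of which 5141 were shared in direction. The letters pair nothing in the labels, and same-letter libraries deviated with correlations of 0.0108, -0.0108 and -0.0458, and ZT10 replicate A was the 1 library of 6 that correlated best with its own letter, so the paired fit is an alternative only. With the GC and length offsets *Jund* (-0.549), *Cacnb3* (-0.245) and *Mt2* (-0.112) turned negative, and with the offsets and the replicate block together they were -0.536, -0.237 and -0.114. The cause was not tested. The recovered reads moved the median over all genes to -0.144 and the offsets with the block to -0.108, and others left it between -0.096 and 0.010. How small a difference these depths could show was not measured.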
